A study of Mus musculus with 10 samples.

Results

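Chromosome 4 was followed in the genomes of 8 mouse ovarian tumors through the bins that the deposited copy number tables place on it. All bins of this chromosome were taken, and a bin was left out of a tumor where its read depth was 0. The tables hold 3539 such bins among 59640 in all, or 5.93%, and between 1 and 4 of them had a depth of 0 in a tumor. The bins tile genes, not the whole chromosome: they carry 1277 gene names, have a median length of 18628 bp and cover 61.1 Mb between positions 3167320 and 156339499 of the build GRCm38. The chromosome was selected on its log2 copy ratios in these tumors, so levels, segments and breakpoints are given as a description, and tests come from fits over all 20 chromosomes or all windows of the genome.

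The tumors arose in C57BL/6 mice whose fallopian tube epithelium had been electroporated with plasmids for Cas9, a guide RNA and Cre, and DNA came from fixed, paraffin-embedded tissue that was sequenced at low coverage. Lkb1, a kinase and tumor suppressor, was deleted in 5 tumors, named Del1 to Del5 here, and intact in 3, named Int1 to Int3. For PAX8, which marks secretory cells of the fallopian tube, the labels list 4 tumors as positive and 4 as negative. Del1, Del4, Int2 and Int3 were PAX8-positive, and Del2, Del3, Del5 and Int1 were PAX8-negative. The labels do not name the genes that the guides targeted or say which cells of a plasmid-treated tube gave rise to a tumor, and single-cell RNA sequencing came from the ascites of 1 mouse whose number is that of Del1. Each tumor has its own number, and p-values measure the spread between these tumors. A control tissue library was not analysed here. Mean depth over chromosome 4 lay between 1.21 and 2.07 in the tables' own unit, the SD of single bins between neighbours was 0.16 to 0.25 on the log2 scale, and medians of 1 Mb windows had an SD of 0.047 to 0.104. The log2 copy ratio is taken against a reference that the sources used here do not name. In bulk DNA a smaller share of tumor cells and a smaller change per cell cannot be told apart.

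Mouse chromosome 4 joins stretches that lie on several human chromosomes. From its start it corresponds to parts of human 8q and 6q, then to 9p13 and 9q, then to 9p24 to 9p21 with the cell cycle inhibitors Cdkn2a and Cdkn2b, and from there to its far end to human 1p, ending in 1p36. Loss of Cdkn2a removes inhibitors of the cyclin D kinases and of Mdm2, the ligase that degrades p53, and loss of human 1p36 and of ARID1A, a subunit of the SWI/SNF chromatin remodeler, is known from several human cancers. The Cdkn2a locus therefore lies in the middle of the mouse chromosome and not at an end.

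Promoters of 4 genes are shown because the results below set their bins apart: Cdkn2a and Cdkn2b stand at the human 9p21 locus, the Jun bin was among the lowest listed genes, and Skint4 begins the deepest local loss. Each sequence is the 250 bases before a RefSeq transcript start (GRCm38.p6, read 5′ to 3′ on the gene's strand), with CG dinucleotides in capitals, and all 4 genes were found there by symbol. Cdkn2a has a pair of listed promoters, and the one shown (chr4:89294620-89294869, minus strand) holds 40 CG, while the other, nearer the shared exons, holds 7. The Cdkn2b promoter (chr4:89311033-89311282, minus strand) holds 12, that of Jun (chr4:95052223-95052472, minus strand) 15 and that shown for Skint4 (chr4:112071766-112072015, plus strand) 0. Skint4 has 2 listed promoters, and only the first is shown here.
Cdkn2a: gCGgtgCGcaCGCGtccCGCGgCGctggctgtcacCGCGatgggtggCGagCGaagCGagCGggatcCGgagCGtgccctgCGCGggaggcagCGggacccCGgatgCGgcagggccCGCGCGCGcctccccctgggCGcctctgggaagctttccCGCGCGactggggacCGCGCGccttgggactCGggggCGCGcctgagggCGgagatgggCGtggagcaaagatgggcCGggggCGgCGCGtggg
Cdkn2b: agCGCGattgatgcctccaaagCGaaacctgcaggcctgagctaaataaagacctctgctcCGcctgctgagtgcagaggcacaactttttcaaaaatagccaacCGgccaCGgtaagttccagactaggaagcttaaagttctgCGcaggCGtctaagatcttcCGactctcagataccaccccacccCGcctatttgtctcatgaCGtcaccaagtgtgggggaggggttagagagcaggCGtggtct
Jun: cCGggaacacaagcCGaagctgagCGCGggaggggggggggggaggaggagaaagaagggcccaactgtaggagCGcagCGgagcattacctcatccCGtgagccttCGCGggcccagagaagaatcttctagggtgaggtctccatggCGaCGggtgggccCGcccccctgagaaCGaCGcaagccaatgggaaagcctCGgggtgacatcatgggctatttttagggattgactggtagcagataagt
Skint4: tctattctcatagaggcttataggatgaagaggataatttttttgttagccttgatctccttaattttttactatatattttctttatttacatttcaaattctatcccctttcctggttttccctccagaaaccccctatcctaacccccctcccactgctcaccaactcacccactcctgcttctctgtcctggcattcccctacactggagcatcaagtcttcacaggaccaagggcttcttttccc
Of 2053 promoters of the same length on chromosome 4, 94.5% hold at least 1 CG, the median is 6, and 1.56% hold more than the Cdkn2a promoter shown. A count of CG is a description of these letters, and the deposited values do not measure methylation.

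In the 8 tumors chromosome 4 ranged from nearly flat to altered over most of its length. It was divided into 143 windows of 1 Mb, of 2347 in the genome, with a median of 25 bins. Of these 143 windows, 31 held fewer than 10 bins. A window was called gained above 0.2 and lost below -0.2 on the log2 scale. The mean log2 ratio of the chromosome was 0.16 in Del4, 0.02 in Del1, -0.01 in both Del3 and Int1, -0.07 in Int2, -0.09 in Del2, -0.11 in Del5 and -0.22 in Int3. In Del1, Del2, Del4 and Int2 these means hide opposite changes within the chromosome, which the shares of gained and lost windows show.

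Int2 had the most altered chromosome 4, with 43 windows gained (30.1%, against 15.6% of all windows of that tumor) and 66 lost (46.2%, against 32.3%), or 76.2% altered against 47.9%. Int3 had 80 lost windows (55.9%, against 16.3%) and 1 gained (0.699%, against 18.6%), or 56.6% altered against 34.9%, so nearly all of its altered windows were losses. Del4 had 58 gained windows (40.6%, against 22.0%) and 12 lost (8.39%, against 26.2%), or 49.0% altered against 48.3%. Del1, also PAX8-positive, had 15 gained (10.5%, against 15.4%) and 14 lost (9.79%, against 30.5%), or 20.3% altered against 45.8%, so its chromosome 4 was less altered than its genome. Among PAX8-negative tumors Del2 stood highest, with 17 gained (11.9%, against 3.03%) and 39 lost (27.3%, against 10.1%), or 39.2% altered against 13.1%. Del5 had 2 gained (1.4%, against 5.12%) and 24 lost (16.8%, against 7.03%), or 18.2% altered against 12.1%. Int1 had 9 gained (6.29%, against 3.50%) and 11 lost (7.69%, against 6.31%), or 14.0% altered against 9.80%. Del3 had 2 gained (1.4%, against 2.22%) and 4 lost (2.8%, against 1.49%), or 4.2% altered against 3.71%, which is close to its background. Every gained window of Del3, Del5 and Int3 held fewer than 10 bins, as did most altered windows of Int1. With 143 windows the 95% Wilson intervals of the altered share ran from 1.94% to 8.85% in Del3 and from 68.6% to 82.5% in Int2, and they cover counting of windows only, which are not independent.

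**Figure D1:**
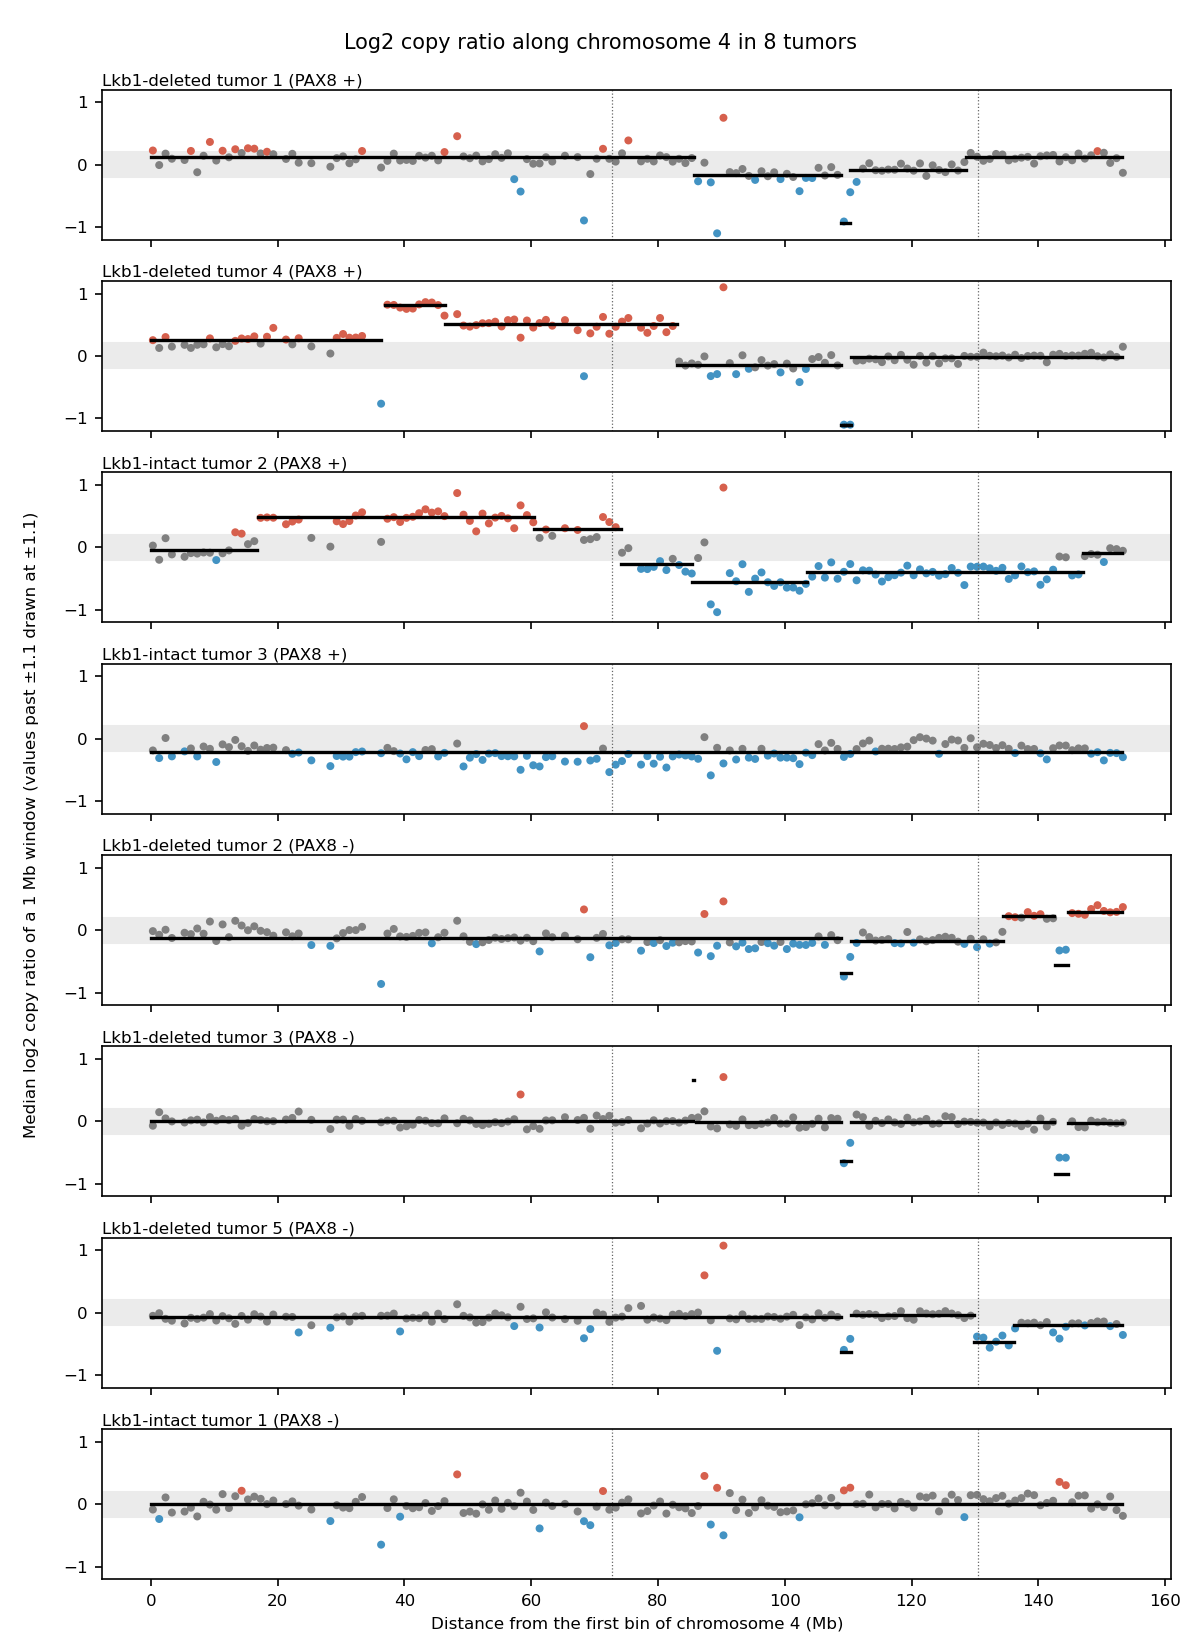
Median log2 copy ratio of each 1 Mb window (points; red above 0.2, blue below -0.2; levels past the panel's range are drawn at its edge) and of each segment (black lines) against the distance from the first bin in Mb, with 1 panel per tumor, PAX8-positive tumors on top and dotted lines at Ptprd and Arid1a. In 3 of the 4 PAX8-positive tumors the level steps down in the middle of the chromosome, and the local dip near the Skint genes stands in all 5 Lkb1-deleted tumors.

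The stretch from the chromosome start to Ptprd, which holds the orthologs of human 8q, 6q, 9p13 and 9q, was high in 2 PAX8-positive tumors and low in another. Its median log2 ratio was 0.47 in Del4, 0.40 in Int2, 0.13 in Del1 and -0.23 in Int3. The 4 PAX8-negative tumors lay between -0.08 and 0. The means of both PAX8 groups were 0.19 ± 0.32 (SD, n = 4) and -0.04 ± 0.04 (SD, n = 4), so the SD among PAX8-positive tumors exceeded the difference of the means, and the groups overlapped. In Del4 the gain was uneven, at 0.25 up to 39451776, at 0.81 over 285 bins from 40143081 (Aco1) to 49506557 (Baat), and at 0.51 from there to 86108455, in bins named for Sh3gl2 and Adamtsl1. The middle piece is 9.36 Mb long, and 99.6% of its bins lay above 0. In Int2 the first 16.8 Mb lay at -0.05, the next 808 bins, from 20007938 (Ttpa) to 63622428 (Tex48), at 0.48, and the following 220 bins at 0.29 up to 77311178 within Ptprd. Both tumors thus had segments past 0.2 from Ttpa to within Ptprd, with different edges.

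The highest window of at least 10 bins was the same in these 2 tumors, from 46000001 to 47000000, at 0.86 in Del4 and 0.61 in Int2. Other windows came close, with 0.856 at 47000001 in Del4 and 0.576 at 48000001 in Int2. Those gaps are smaller than the window SD of 0.086 in Del4 and 0.104 in Int2. Among the genes of the window from 46000001 are Xpa, a factor of nucleotide excision repair, and Foxe1, a thyroid transcription factor. Of 29 listed genes of the 9p13 and 9q stretch, 29 lay above 0.2 in Del4 (26.5% of all genes of that tumor did) and 27 in Int2 (22.8%), while 20 lay below -0.2 in Int3 (23.9%). The median over these genes was 0.57, 0.46 and -0.28 in the 3 tumors, against 0.06, -0.24 and -0.19 over all genes of chromosome 4. Among listed genes measured by at least 8 bins, shown here because more bins give a firmer value, Pax5, the B cell lineage factor, read 0.78 in Del4, 0.51 in Int2 and -0.34 in Int3, and between -0.07 and 0.06 in the other 5. Bach2, a transcriptional repressor of lymphocytes nearer the chromosome start, read 0.28, 0.38 and -0.30. Grhpr, a glyoxylate reductase measured by 1 bin, read 1.15 in Del4 where bins up to 1 Mb away had a median of 0.80.

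**Figure D2:**
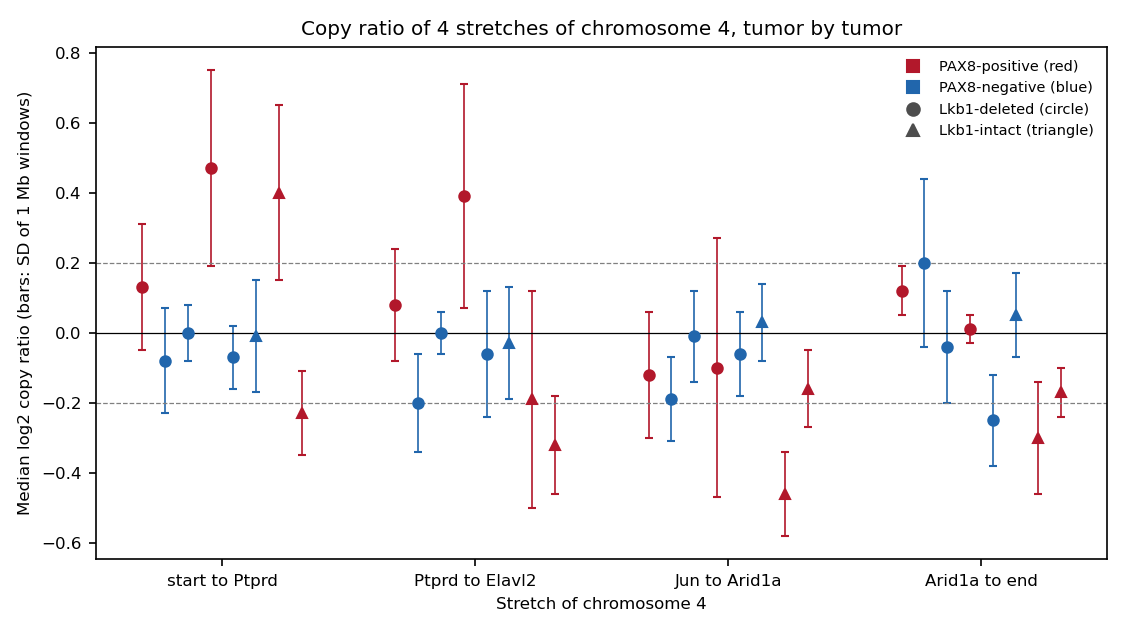
Median log2 copy ratio of 4 stretches of chromosome 4 in each tumor (points; circles Lkb1-deleted, triangles Lkb1-intact, red PAX8-positive, blue PAX8-negative); bars give the SD of the 1 Mb windows in that stretch and dashed lines 0.2 and -0.2. From the start to Ptprd the PAX8-positive tumors range from -0.23 to 0.47, and the PAX8-negative tumors from -0.08 to 0.

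Toward the orthologs of human 9p24 to 9p21, 3 of the 4 PAX8-positive tumors stepped down. Int2 went from 0.29 to -0.27 within Ptprd, a receptor phosphatase, and again to -0.56 between 88558245 and 88571229, among the type I interferon genes. Del4 went from 0.51 to -0.14 at 86108455. Del1 went from 0.12 to -0.17 between 88808380 and 88841861, also among the interferon genes. The 50 bins on each side had medians of 0.41 and -0.13 at the Ptprd step, 0.43 and -0.11 in Del4, and 0.08 and -0.18 in Del1. The steps lie at different positions, and the interferon genes are near-identical copies, so positions inside that cluster are uncertain. In Del3 the 12 bins from 88773834 to 88842421 in the same cluster read 0.66 as a segment of their own, between flat stretches at 0 and -0.01. The stretch from Ptprd to Elavl2 as a whole read 0.39 in Del4, 0.08 in Del1, 0 in Del3, -0.03 in Int1, -0.06 in Del5, -0.19 in Int2, -0.20 in Del2 and -0.32 in Int3.

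No tumor showed a deep loss over Cdkn2a. Cdkn2a, from 89274473 to 89294619, encodes p16Ink4a and p19Arf and lies in 1 bin. It read 0.07 in Del1, -0.05 in Del2, 0.10 in Del3, 0.07 in Del4 and 0.04 in Del5, and 0.21, -0.07 and -0.40 in Int1, Int2 and Int3. The lowest value belonged to Int3, where bins up to 1 Mb away had a median of -0.35, the level of the chromosome around it. Cdkn2b, from 89306289 to 89311032, encodes p15Ink4b and also lies in 1 bin. It read -1.14 in Del1 and -0.78 in Del4, where neighbouring bins had medians of 0.04 and -0.06, and -0.41, 0.43, 0.29, 0.01, -0.20 and 0.14 in Del2, Del3 and Del5 and Int1, Int2 and Int3. Mtap, a methionine salvage enzyme that is often lost with CDKN2A in human tumors, read between -0.30 and 0.01 over 2 bins. Cdkn2a and Mtap thus did not share the low values of Cdkn2b, and Ifne, an interferon of the same locus, has no bin in the tables. Over 11 measured genes of the human 9p21 list, 7 lay below -0.2 in each of Int2 (34.3% of all its genes) and Int3 (23.9%), and 6 in Del2 (21.3%). Focad and Hacd4 share their 18 bins there, so 1 measurement counts for both among the 11 and among the 7 of Int2. Elavl2, an RNA-binding protein of neurons, was low in 6 tumors over 8 bins, between -0.28 in Del1 and -0.91 in Int2, and read -0.08 and -0.12 in Del3 and Del5. Tusc1, in 1 bin with no neighbour within 1 Mb, read 0.46 to 1.47 in 6 tumors and -0.50 and -0.40 in Int1 and Int3.

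Over the orthologs of human 1p the tumors differed in level, and toward the chromosome end also in direction. Between Jun and Arid1a the median log2 ratio was -0.46 in Int2, -0.19 in Del2, -0.16 in Int3, -0.12 in Del1, -0.10 in Del4, -0.06 in Del5, -0.01 in Del3 and 0.03 in Int1. Of 38 listed genes below band 1p36, 32 were lost in Int2 (34.3% of all its genes), 19 in Del2 (21.3%), 16 in Del1 (34.2%) and 15 in Int3 (23.9%). Jak1, the interferon receptor kinase, in bins that reach beyond the gene, read -0.76 in Int2, -0.37 in Del2 and 0.05 in Del3. Nfia, a transcription factor measured by 29 bins, lay in the lowest such window of Int2 (97000001 to 98000000, -0.71) and read -0.67 there, while the other tumors read -0.37 to -0.08. In Int2 the loss ran on at -0.40 from 106622432 (Ttc22) to 150248879 (Eno1), over 1358 bins and 43.6 Mb.

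From Arid1a to the chromosome end, the ortholog of 1p36, the median was 0.20 in Del2, 0.12 in Del1, 0.05 in Int1, 0.01 in Del4, -0.04 in Del3, -0.17 in Int3, -0.25 in Del5 and -0.30 in Int2. Del2, a PAX8-negative tumor, turned from -0.17 to 0.23 within Usp48 at 137615349 and read 0.29 from 147873599 (Mfn2) to the end. Its highest window, from 152000001 to 153000000, read 0.40 and holds Chd5, a chromatin remodeler. Del5, also PAX8-negative, had a loss of -0.47 over 228 bins and 6.27 Mb, from 133044685 in Ahdc1 to 139318426 at Akr7a5, followed by -0.19 to the end. This stretch holds Arid1a. The 37 listed 1p36 genes followed these levels: 18 were gained in Del2 (13.9% of all its genes) and 24 lost in Del5 (16.5%). Of the same genes 26 were lost in Int2 (34.3%), and 17 were lost (23.9%) and 0 gained (25.4%) in Int3. Camta1 and Per3 share their 51 bins there, so 1 measurement counts for both among the 37, the 18 of Del2 and the 17 of Int3.

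Arid1a, from 133679008 to 133756769 in 4 bins, read -0.56 in Del5, -0.52 in Int2, -0.33 in Int3, -0.24 in Del2, -0.17 in Int1, -0.13 in Del3, -0.07 in Del4 and 0.03 in Del1. The other bins within 1 Mb read -0.32, -0.29, -0.11, -0.25, 0.15, -0.02, -0.01 and 0.13 in the same order. Arid1a thus lay below its surroundings in 7 of 8 tumors, and above them only in Del2, at -0.24 against -0.25. Trp73, a relative of p53 at 154056249 to 154139875, read 0.26, 0.32, -0.14, 0.08 and -0.21 in Del1 to Del5 and 0.24, 0.01 and -0.24 in Int1 to Int3, over 4 bins. The other bins within 1 Mb read 0.04, 0.28, -0.02, 0.01, -0.21, 0.02, -0.04 and -0.23 in the same order, so the values past 0.2 in Del1 and Int1 were not shared by the bins around Trp73. Mtor, a kinase that drives growth, read 0.15 in Del2 and -0.47 in Int2. Casz1, a zinc finger factor, read 0.25 and -0.47 in the same tumors. Mtor and Casz1 were chosen after their values were seen, as were Pax5, Bach2, Jak1 and Nfia.

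Single genes outside these levels were mostly genes of 1 short bin. Jun, a transcription factor of the AP-1 family and an oncogene (95049036 to 95052222, 1 bin), read -1.43, -0.95, 0.18, -0.94 and -0.70 in Del1 to Del5 and -0.45, -1.43 and -0.77 in Int1 to Int3. Bins up to 1 Mb away had medians of -0.46 to -0.03, so the low values of 7 tumors were not shared by the genes around Jun. Gja4, a gap junction protein in 1 bin, was below -0.2 in all 8 tumors, from -1.56 to -0.34, with neighbours between -0.41 and 0.09. Id3, an inhibitor of helix-loop-helix factors, read below -0.2 in 6 tumors and at -2.84 in Int3, with neighbours at -0.10. Cdkn2c, the inhibitor p18Ink4c, and Mycbp, a partner of Myc, were each below -0.2 in 7 tumors, with the lowest values at -0.95 and -1.04. Mutyh, a base excision repair glycosylase, was lost in 6 tumors, Cdc20, an activator of the anaphase-promoting complex, in 5, Sfn (14-3-3 sigma) in 5 and Eno1, a glycolytic enzyme, in 5. Rps6, a ribosomal protein, read -2.45 in Int3 and lay between -0.79 and 0.36 elsewhere. Ifnb1 read from -1.65 to 0.84, Cer1, a BMP and Nodal antagonist, from -1.19 to 0.60, and Foxd3, a neural crest factor, from -0.60 to 1.45. Mycl, the Myc relative of human 1p, read between -0.41 and 0.37.

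The number of bins behind a gene moved with these values. Of 57 listed genes measured by 1 bin, 43.9% were gained, or were lost, in 4 tumors or more, 4 as gains and 21 as losses, against 15.3% of 59 genes of 2 to 7 bins and 16.2% of 37 genes of 8 or more. Over all genes the same share was 33.3% on chromosome 4 and 31.4% in the genome, and 26.1% of the 153 listed genes. The median distance of a gene from the other bins within 1 Mb was 0.14 to 0.24 over the tumors for genes of 1 bin and 0.04 to 0.11 for genes of 8 or more. Bins under 10 kb had an SD of 0.36 to 0.50 around their segment, against 0.15 to 0.27 for longer bins, and 56.9% to 69.2% of them lay more than 0.2 from it, against 20.4% to 45.2%. Bins past the threshold in all 8 tumors were rare: 10 were gained (0.283%, against 0.570% of all bins) and 17 lost (0.482%, against 0.296%). The gained ones include bins of Mup2 and Mup18, urinary protein genes of a near-identical family, and the lost ones include Fv1 and a bin each of Skint2 and Skint3. The part of bin length in these calls was not tested. Promoter CG content did not order them in 1 direction: for genes of 1 bin under 10 kb with 0 to 3 CG the median was between -0.33 and 0.04 over the tumors, and for those with 14 to 38 CG between -0.30 and 0.17.

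**Figure D3:**
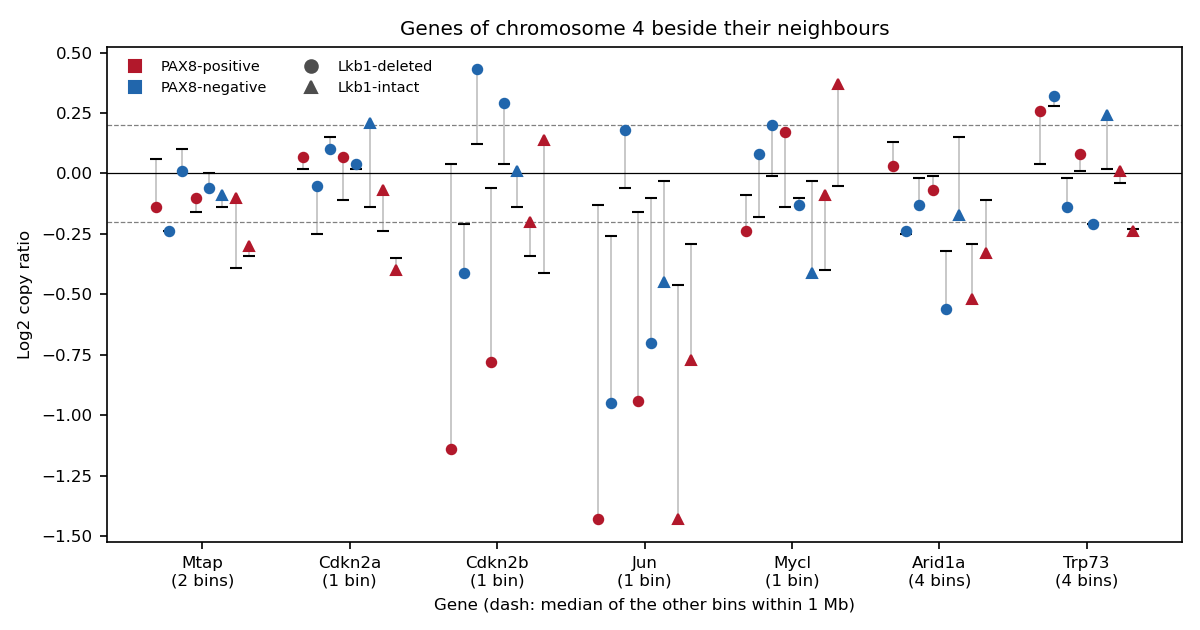
Log2 copy ratio of 7 genes of chromosome 4 in each tumor (circles Lkb1-deleted, triangles Lkb1-intact, red PAX8-positive, blue PAX8-negative), joined to the median of the other bins within 1 Mb (dashes). The Jun bin lies below its neighbours in 7 tumors, down to -1.43, while Arid1a and Trp73, with 4 bins each, lie nearer to theirs.

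The sharpest local change lay over the Skint genes, a family of immunoglobulin-like membrane proteins of the skin and thymus, of which Skint1 shapes a population of gamma delta T cells in mice. The window from 112000001 to 113000000 was the lowest of the chromosome 4 windows of at least 10 bins in all 5 Lkb1-deleted tumors, at -0.91, -0.74, -0.67, -2.12 and -0.59, and in none of the 3 Lkb1-intact tumors. It begins sharply: Skint1, in the bin that ends at 112029538, read -0.32 to 0.11 over the 8 tumors, and each Lkb1-deleted tumor stepped down at the next bin, Skint4, at 112072016. Over the 12 bins from Skint4 to Skint9 (112072016 to 112433985) the median log2 ratio was -1.47, -0.88, -0.90, -4.97 and -0.80 in Del1 to Del5 and 0.21, -0.54 and -0.36 in Int1 to Int3. The groups did not overlap in this median, taken over bins that were chosen for their difference. In 7 of the 12 bins (58.3%) all Lkb1-deleted tumors lay lower than all Lkb1-intact ones, against 4.19% of all bins in the genome. In Del4 the depth over the 12 bins was 0.0515, or 4.22% of that of its neighbours within 1 Mb. In the other Lkb1-deleted tumors it was 44.9% to 74.7% of that of the neighbours. In the Lkb1-intact tumors it was 107% to 150%. The depth is not set against the reference, so it need not match the log2 ratio. As a log2 difference from their neighbours the 5 Lkb1-deleted tumors read -1.29, -0.72, -0.94, -4.81 and -0.72, and the Lkb1-intact tumors 0.27, -0.03 and -0.19. Int2 and Int3 were thus near the level of the chromosome around these genes.

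Over all 80 Skint bins the medians were -0.58, -0.54, -0.45, -1.41 and -0.43 in the Lkb1-deleted and 0.25, -0.27 and -0.24 in the Lkb1-intact tumors. Of these bins, 32 (40.0%) lay lower in all Lkb1-deleted tumors than in all Lkb1-intact ones, where 4.19% of all bins in the genome and 1.67% of those on chromosome 4 did. These bins were chosen for their difference, so the count is a description. In Del2, Del3 and Del5 the low segment ended at the same bin edge, 113626923 within Skint5, and in Del1 at 113533778. Del4 had 5 pieces over the same stretch, at -5.34, -3.49, -1.41, -2.46 and -1.48, the last of which also ended at 113626923. The left edge was the same in PAX8-positive and PAX8-negative tumors. Normal tissue was not analysed here, and an origin in the tumors and one in the mice cannot be told apart. Skint genes are related copies whose likeness was not measured here. The sources used here do not say how reads that match several copies were counted. By Lkb1 label the window from 112000001 differed by -0.85, with a limma p of 0.997 after Benjamini-Hochberg adjustment over all windows.

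**Figure D4:**
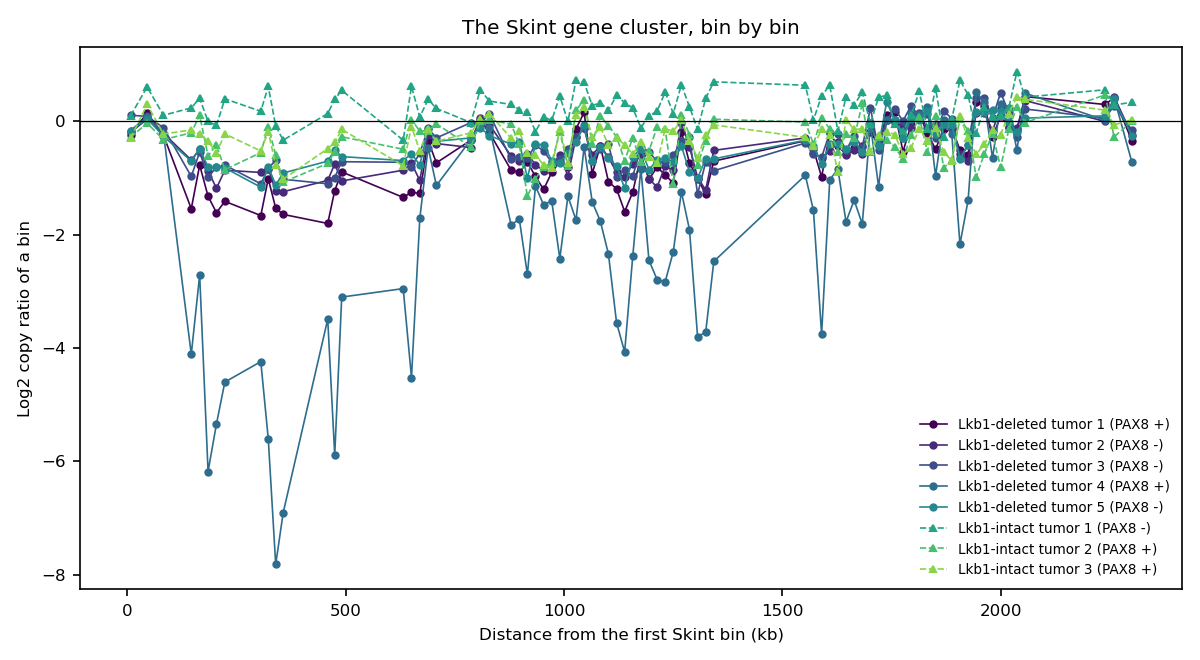
Log2 copy ratio of each of the 80 Skint bins against the distance from the first of them (solid lines and circles Lkb1-deleted, dashed lines and triangles Lkb1-intact tumors). Lkb1-deleted tumor 4 reaches -7.82, and Lkb1-intact tumor 1 has a median of 0.25.

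A second local stretch, from Zfp986 to Fv1 (145868794 to 147870358, 24 bins), holds a cluster of KRAB zinc finger genes, repressors of endogenous retroviruses, and Fv1, a restriction factor against murine leukemia virus. It read -0.84 in Del3, -0.56 in Del2 and -0.41 in Del5, and between -0.07 and 0 in the 4 PAX8-positive tumors. Int1, the fourth PAX8-negative tumor, read 0.41. Against the other bins within 1 Mb, Int1 and Int2 both lay at 0.36, so tumors of both PAX8 labels were high by that measure. By it Del3 lay at -0.83 and Del2 at -0.76, while Del5 lay at -0.19, near the PAX8-positive Del1 at -0.14. Del4 and Int3 lay at 0.01 and 0.10. These genes too are related copies, and only Del2 and Del3 had breakpoints around them.

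Breakpoints, the edges between segments of different level, numbered 9 in Del4, 6 in Del3 and in Int2, 5 in Del2, 4 in Del1 and Del5, and 0 in Int1 and Int3. The genome of each tumor held 34, 29, 56, 36, 45, 28, 8 and 45 in the same order, so chromosome 4 carried more than the mean per chromosome of 1.4 to 2.8 in the 6 tumors that had any. Del4 and Int2 had no chromosome with more. Chromosome 14 averaged more, at 8.2 in the Lkb1-deleted and 4.33 in the Lkb1-intact tumors, against 5.6 and 2 on chromosome 4. Of the 34 breakpoints on chromosome 4, 22 lay at the edges of or inside the Skint, interferon and Zfp986 to Fv1 clusters. The other 12 lay elsewhere, among them 5 in Int2, 3 in Del4 and 0 in Del3. In Int3 the whole chromosome was 1 segment at -0.21, with 77.7% of its 3535 bins below 0, and in Int1 it was 1 segment at 0.01.

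**Figure D5:**
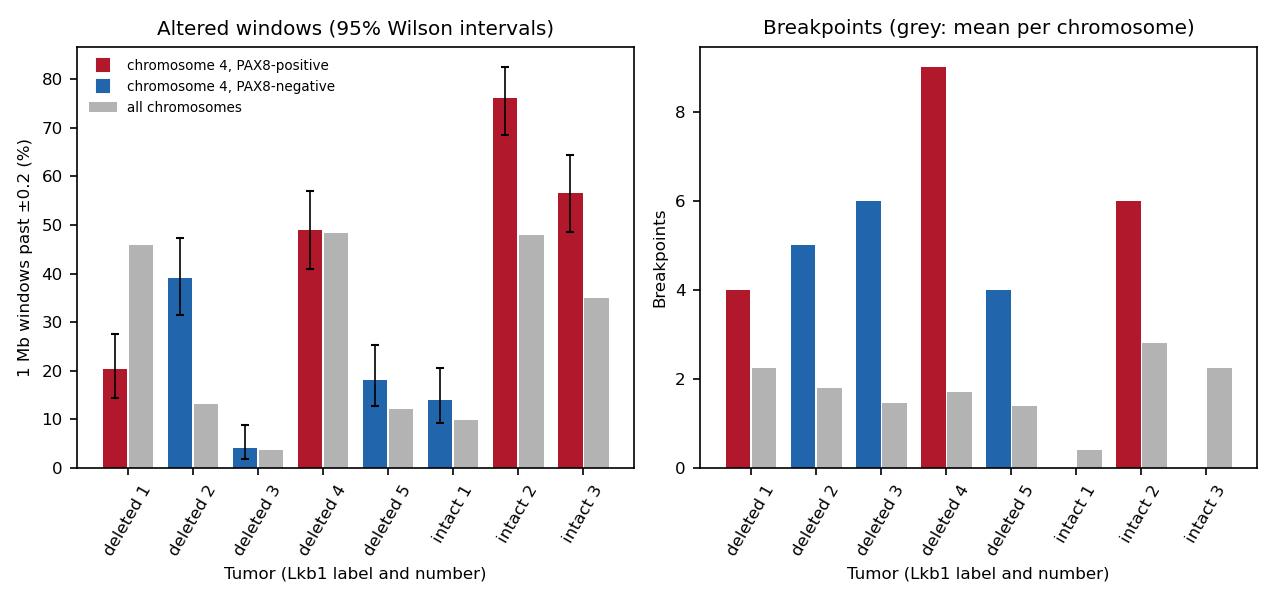
Share of 1 Mb windows past 0.2 or below -0.2 (left, in percent, with 95% Wilson intervals) and number of breakpoints (right) on chromosome 4 in each tumor, red for PAX8-positive and blue for PAX8-negative, beside the share over all chromosomes and the mean breakpoints per chromosome (grey). The share is lowest, at 4.2%, in Lkb1-deleted tumor 3 and highest, at 76.2%, in Lkb1-intact tumor 2.

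Neither label separated the tumors on chromosome 4 past the threshold. By PAX8 the altered share averaged 50.5% ± 23.2 (SD, n = 4) in PAX8-positive and 18.9% ± 14.7 (SD, n = 4) in PAX8-negative tumors. They were 31.6 percentage points apart (exact permutation test, two-sided p = 0.0571, 0.104 after Benjamini-Hochberg adjustment over 20 chromosomes). The groups overlapped, since Del1 at 20.3% lay below Del2 at 39.2%. By size this difference ranked 15 among 20 chromosomes, of which 5 had an unadjusted p under 0.05 and 0 (0%) passed after adjustment. The smallest p that 4 against 4 tumors can give is 0.0286. The tumor numbers share endings of 4 digits whose meaning the labels do not give, and within the endings that hold both PAX8 groups the difference was 34.3 points (2 positive, 1 negative) and 30.8 points (1 and 1). Mean log2 stood at -0.03 ± 0.16 (SD, n = 4) with PAX8 and -0.05 ± 0.05 (SD, n = 4) without it, with p = 0.771 by exact permutation, adjusted 1. Breakpoints numbered 4.75 ± 3.77 and 3.75 ± 2.63 (p = 0.829 by exact permutation, adjusted 1). Within those endings the mean differed by -0.09 and 0.26 and breakpoints by -4 and 5, in opposite directions.

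By Lkb1 label the altered share was 26.2% ± 17.8 (SD, n = 5) in deleted and 49.0% ± 31.8 (SD, n = 3) in intact tumors (difference -22.8 points, exact permutation p = 0.196, adjusted 1). Breakpoints numbered 5.6 ± 2.07 (SD, n = 5) in deleted and 2 ± 3.46 (SD, n = 3) in intact tumors (exact permutation p = 0.143, adjusted 0.655). These counts include the breakpoints at the Skint, interferon and Zfp986 to Fv1 clusters. Elsewhere on the chromosome Del1 to Del5 had 1, 1, 0, 3 and 2, and Int1 to Int3 had 0, 5 and 0. Mean log2 was -0.01 ± 0.11 (SD, n = 5) and -0.10 ± 0.11 (SD, n = 3), with an exact permutation p of 0.357, adjusted 0.952. The smallest p over these 56 splits is 0.0357. These p-values do not show that the groups were alike, since their spread was as wide as most differences.

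Window by window, limma called 0 of 143 chromosome 4 windows by either label after adjustment, where it called 0 of 2345 windows (0%) by PAX8 and 1 (0.0426%) by Lkb1. At an unadjusted p under 0.05 it had 6 chromosome 4 windows by PAX8, against 203 (8.66%) of all, and 10 by Lkb1, against 90 (3.84%). Int3, the PAX8-positive tumor whose chromosome 4 was 1 segment at -0.21, bore on the first count. Without it 49 of 143 chromosome 4 windows had an unadjusted p under 0.05, against 332 of 2345 in the genome. After adjustment 0 chromosome 4 windows were called, with a lowest adjusted limma p of 0.055, against 92 called in the genome. Of the 6 windows by PAX8 in all tumors, those at 90000001, 105000001, 102000001 and 104000001 held 1, 9, 41 and 50 bins. Their PAX8-positive minus PAX8-negative difference was -0.33, -0.30, -0.23 and -0.27. Those at 47000001 and 42000001, of 15 and 14 bins, had one of 0.47 and 0.43. The limma p of the 6 windows, adjusted over all windows, lay between 0.395 and 0.573, so they pointed in both directions and none passed.

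The ascites cells gave 1 further view, from tables of the authors. The authors' deposited table of copy number regions lists 31 regions on 14 chromosomes, and 0 of them lie on chromosome 4. Del1, whose number the ascites carries, had on this chromosome no segment past 0.2 or below -0.2 apart from the Skint genes. Of 548 markers of the cluster named tumor cells that could be placed, 31 (5.66%) lie on chromosome 4, as do 6.14% of all protein-coding genes. In the authors' deposited table these include Smim1 with an average log fold change of 2.22, Rspo1, an agonist of Wnt signalling, with 1.41, Wnt4, a Wnt ligand, with 1.14, Nfia with 1.2, and Cdkn2a with 0.56. They come from 1 library with no replicate and are taken as natural logs. In the DNA of Del1 these genes read 0.21 (Smim1), 0.01 (Rspo1), 0.17 (Wnt4), -0.20 (Nfia) and 0.07 (Cdkn2a). Markers listed there thus came from genes with DNA levels on both sides of 0.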

How the data were processed

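Genomic DNA of 8 tumors was followed, and a control tissue library was not analysed here. The authors deposited per tumor a log2 copy ratio for each bin; BWA, Picard and the builds GRCm38 and mm10 are named in the submitters' processing notes, and neither the tool nor the reference of the ratio is given in the sources used here. Also deposited by the authors were the read depth (coverage) of each bin, and a weight, a score identical in all tumors that is unexplained by the file headers. For the ascites library the authors deposited average log fold changes per cell cluster, read here as natural log values since Seurat 2.3.4 is named per the submitters' processing notes, and a copy number state score per region.

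Bins of depth 0 were left out, and medians of 1 Mb windows were called past 0.2 on the log2 scale. Segments came from a penalized piecewise-constant fit of at least 5 bins, with a penalty factor of 10, levels closer than 0.15 merged, and bins over 3 SD from the median of 11 pulled in. The fit was tested on simulated chromosomes. Differences between groups were tested by exact permutation, two-sided, with p-values adjusted over 20 chromosomes (Benjamini-Hochberg), and by limma 3.58.1 over all windows. Other thresholds, windows, penalties, centring and covariates were tried, and each tumor was left out in turn. Numbers of tumors within a label are in accession order and pair nothing. Named genes were the 9p21 and 1p landmarks and listed genes gained, or lost, in 4 tumors or more (at most 10, by size of the mean log2), or past 1 in any. The chromosome and the gene lists were chosen with earlier results of these data known.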

Additional observations from a re-analysis of the deposited data

Results flagged for a closer look

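In 5 of 96 checks within groups of 4 or 5 tumors, 1 tumor stood far from the others relative to the range of its group. For values not chosen beforehand, chance flags about 1 in 20 groups. Some genes and stretches checked here were chosen for extreme values, and the groups share tumors, so that rate does not apply to this count. Among PAX8-positive tumors, the stretch from Jun to Arid1a read -0.46 in Int2, where the nearest tumor read -0.16. Over Skint4 to Skint9, Int1 read 0.21 among PAX8-negative tumors, where the nearest read -0.80, and Del4 read -4.97 among Lkb1-deleted tumors, where the nearest read -1.47. The single bin of Rps6 read -2.45 in Int3, where the nearest PAX8-positive tumor read -0.49. The single bin of Grhpr read 1.15 in Del4, where the nearest PAX8-positive tumor read 0.43.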

How the results depend on the processing

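The number of chromosome 4 windows called by limma was 0 under every alternative tried, for both labels. The altered share kept its direction under all 15 alternatives for each label, and no adjusted p passed. Leaving out each tumor in turn, its difference by PAX8 ran from 23.1 to 41.7 points, and by Lkb1 from -40.3 points without Int1 to -9.16 without Int2. The difference of means by PAX8 ran from -0.04 without Del4 to 0.09 without Int3, and by Lkb1 from 0.03 to 0.14. The difference in breakpoints by PAX8 ran from -0.417 without Del4 to 2.58 without Int3, was 5.5 when changes of state between windows were counted, 3.0 at 0.5 times the penalty, -0.25 without Int1 and -0.143 with splits within the number endings, an alternative chosen after seeing the data. By Lkb1 it ran from 2.6 to 5.6 and was -2.13 by changes of state. The cause of these reversals was not tested. At a threshold of 0.3 the altered share was 6.99% in Del1, 12.6% in Del2, 37.1% in Del4, 11.2% in Del5, 6.29% in Int1, 67.1% in Int2 and 23.1% in Int3. No paired analysis was possible because the labels give the tumors no shared replicate numbers and do not explain the number endings. With splits within those endings the altered share by PAX8 differed by 32.8 points (exact permutation p = 0.333 over 6 splits). Genes of 1 bin had the widest scatter, and its cause was not tested.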
